A study of Mus musculus with 12 samples.

Results

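The MHC class I and peptide-loading genes described here are 10 of the 17302 genes quantified in the cortex of 12 mice: H2-K1, H2-K2, H2-D1, H2-Q7, H2-T23 and H2-M3 among the heavy chains, the light chain B2m, the transporter subunits Tap1 and Tap2, and the loading factor Tapbp. They were taken by gene name from the non-control probes of the arrays. The set was chosen by measured values of these same mice, because H2-K1, H2-K2 and H2-Q7 were higher in both lpr groups than in MRL/+, so the members' contrasts with MRL/+ are given as a description. All 10 were quantified, on 23 spots of 12 probes, out of 31 spots of 13 probes that carry their names. Of the spots left out, 7 were marked as uneven or outlying and 1 was too dim.

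The 12 cortices came from adult females of 3 groups, MRL/lpr, Fn14ko and MRL/+, with 4 animals each. MRL/lpr mice carry the lpr mutation of Fas, a loss of the death receptor Fas, on the autoimmunity-prone MRL background and are used as a model of lupus. Fn14ko mice carry the same lpr mutation and also lack Tnfrsf12a, which encodes Fn14, the receptor of the cytokine TWEAK. MRL/+ mice have the MRL background with intact Fas and Tnfrsf12a, and served as the control. By the study's methods, the MRL/lpr mice and their Fn14ko littermates came from Biogen Idec, and the MRL/+ mice from the Jackson Laboratory. The knockout is constitutive, so Fn14 was missing from every cell type and from the periphery as well as the brain, and the sources used here do not say which strain's chromosome 17 segment flanks the targeted allele. RNA of 2 mice of the same group, one labelled with Cy3 and the other with Cy5, shared each of the 6 arrays, with the odd-numbered replicates in Cy3. Each group lay on its own slide, scanned on its own, so an effect of the slide and one of the group cannot be told apart. The same holds for the source of the mice in the comparisons with MRL/+.

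MHC class I molecules are trimers of a heavy chain, β2-microglobulin and a short peptide, shown at the cell surface to CD8 T cells and natural killer cells. Peptides cut by the proteasome enter the endoplasmic reticulum through the TAP transporter, and tapasin holds the empty class I molecule beside it until a peptide binds. The genes respond to interferons and NF-κB, and in healthy brain they are expressed mostly by endothelial cells and microglia and at a low level by neurons. The heavy chain genes are highly polymorphic and similar to one another, which matters for hybridisation arrays.

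The probes are printed first because neighbouring heavy chains share sequence. Each is a 60-base DNA oligonucleotide, shown 5′ to 3′ as the deposited files give it, in lower case. Capitals in the first pair mark the bases at which the H2-K2 and H2-Q7 probes differ where they overlap, and capitals in the second pair mark the same between the single-spot H2-K1 probe and the H2-T23 probe.
H2-K2 probe A_51_P502456: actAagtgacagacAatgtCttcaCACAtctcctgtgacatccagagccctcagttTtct
H2-Q7 probe A_55_P1978511: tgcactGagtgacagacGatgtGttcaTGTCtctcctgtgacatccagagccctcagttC
H2-K1 probe A_55_P2049647: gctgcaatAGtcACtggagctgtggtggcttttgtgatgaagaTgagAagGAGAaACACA
H2-T23 probe A_51_P237754: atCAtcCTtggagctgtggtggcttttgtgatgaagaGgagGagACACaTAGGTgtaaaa
H2-K1 probe A_51_P198434: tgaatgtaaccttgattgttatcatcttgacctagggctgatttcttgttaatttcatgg
H2-D1 probe A_65_P19395: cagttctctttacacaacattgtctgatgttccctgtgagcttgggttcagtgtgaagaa
B2m probe A_51_P129012: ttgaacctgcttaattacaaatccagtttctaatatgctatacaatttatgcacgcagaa
The H2-K2 and H2-Q7 probes were identical at 49 of 57 overlapping bases, so their signals are uncertain as measures of separate genes. The single-spot H2-K1 probe matched the H2-T23 probe at 39 of 54 bases. No other probe of the arrays that shared a run of 15 bases with a member probe matched it without gaps at 45 or more bases. Whether the probes match the alleles of MRL mice base for base was not tested.

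By the mm9 coordinates in the files, 9 of the 10 genes lie on chromosome 17. The H2-K2 probes sit at chr17:34111941-34112000 and chr17:34111920-34111979, and the H2-K1 probes at chr17:34133055-34133114 and chr17:34133984-34134043. Tapbp lies before them at chr17:34065963-34066022, and Tap1 at chr17:34330854-34330913 and Tap2 at chr17:34353116-34353175 follow. H2-D1 is at chr17:35403886-35403945, H2-Q7 at chr17:35580315-35580374, H2-T23 at chr17:36167338-36167574 and H2-M3 at chr17:37411350-37411409. The 60 bases of the H2-T23 probe map over 237 bases of genome, so the match is split. B2m stands apart at chr2:121978401-121978460. The exon structure at these positions was not analysed here.

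The promoter sequences of RefSeq (GRCm38.p6, 250 bases before to 50 bases after the start site) held 8 of the 10 genes, without H2-K2 and Tap2. The letters GGGATTCCC, the NF-κB motif of the class I enhancer A, were searched on both strands and were found for 3 of the 8, H2-K1, H2-D1 and H2-Q7, against 0.414% of 27025 genes. These 3 promoters, the ones with this motif, are shown with the motif in capitals. H2-T23, whose promoter held 0 copies, followed H2-K1 over the mice at a Pearson r of 0.963 on log2 signals. For H2-D1 and H2-Q7 the r was 0.921 and 0.909. Whether the motif bears on these values was not tested. They rest on the signals that chose the set, and the single-spot H2-K1 probe and the H2-T23 probe are alike in sequence. The promoters shown have the following positions. They are chr17:34000298-34000597 (minus strand), chr17:35262844-35263143 (plus strand) and chr17:35438905-35439204 (plus strand).
H2-K1 promoter: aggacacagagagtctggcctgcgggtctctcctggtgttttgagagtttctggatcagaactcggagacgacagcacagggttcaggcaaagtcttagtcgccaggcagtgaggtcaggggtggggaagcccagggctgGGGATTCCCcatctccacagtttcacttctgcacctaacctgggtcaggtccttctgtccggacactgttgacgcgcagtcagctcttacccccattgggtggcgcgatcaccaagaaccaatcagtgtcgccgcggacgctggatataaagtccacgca
H2-D1 promoter: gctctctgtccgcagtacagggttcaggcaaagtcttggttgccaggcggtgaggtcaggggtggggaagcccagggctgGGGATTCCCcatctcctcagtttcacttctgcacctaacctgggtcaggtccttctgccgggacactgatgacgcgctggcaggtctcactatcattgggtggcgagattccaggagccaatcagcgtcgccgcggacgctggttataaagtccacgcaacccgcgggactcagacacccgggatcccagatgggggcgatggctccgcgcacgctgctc
H2-Q7 promoter: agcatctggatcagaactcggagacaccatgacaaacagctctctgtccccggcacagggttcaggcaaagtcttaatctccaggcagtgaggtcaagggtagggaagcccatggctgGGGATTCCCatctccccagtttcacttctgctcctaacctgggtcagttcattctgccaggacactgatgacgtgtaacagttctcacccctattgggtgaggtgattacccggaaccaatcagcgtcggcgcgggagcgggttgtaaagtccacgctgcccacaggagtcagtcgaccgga
One form of the core of the interferon-stimulated response element, TTCNNTTTC, was found for H2-T23 and B2m, and for 9.76% of all genes. It is in capitals in the B2m promoter at chr2:122147437-122147736 (plus strand). The H2-K1, H2-D1 and H2-Q7 promoters hold the letters agtttcacttct, which this form does not match. Other forms were not searched, so a gene without a match is not shown to lack the element. The interferon-gamma activated site TTCNNNGAA was found for H2-M3 alone and for 9.55% of all genes. A match of letters is a description and not a measured binding site.
B2m promoter: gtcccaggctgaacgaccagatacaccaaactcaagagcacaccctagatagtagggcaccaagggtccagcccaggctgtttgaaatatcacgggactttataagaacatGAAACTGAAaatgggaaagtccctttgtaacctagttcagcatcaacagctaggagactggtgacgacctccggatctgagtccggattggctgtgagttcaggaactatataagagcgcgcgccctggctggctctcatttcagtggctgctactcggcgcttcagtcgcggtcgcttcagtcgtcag

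Signal is given below as the background-corrected intensity divided by the median of the channel, so a value of 1 is the median spot. Values compare mice for 1 gene and not 1 gene with another. Of the channels, the Cy5 channels of MRL/+ replicates 2 and 4 stood apart. There 35.0% and 21.2% of spots passed the software's test for signal above background, compared with 56.6% to 70.03% in the other 10 channels, and negative controls reached 6.12-fold and 6.31-fold of local background, where the remaining channels had 1.13-fold to 2.65-fold. The targeted gene followed its labels: Tnfrsf12a signal was 0.694 ± 0.0786 (SD, n = 4) in Fn14ko and 1.68 ± 0.246 in MRL/lpr (limma adjusted p = 0.00287), with no overlap of the 8 mice. In MRL/+ it was 1.11 ± 0.152, and the knockout had a log2 fold change of −0.67 against MRL/+ without passing the test (adjusted p = 0.104). Fas was dim in every group, at 0.202 ± 0.0555 in MRL/lpr mice, 0.239 ± 0.0757 in Fn14ko and 0.484 ± 0.217 in MRL/+.

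**Figure D1:**
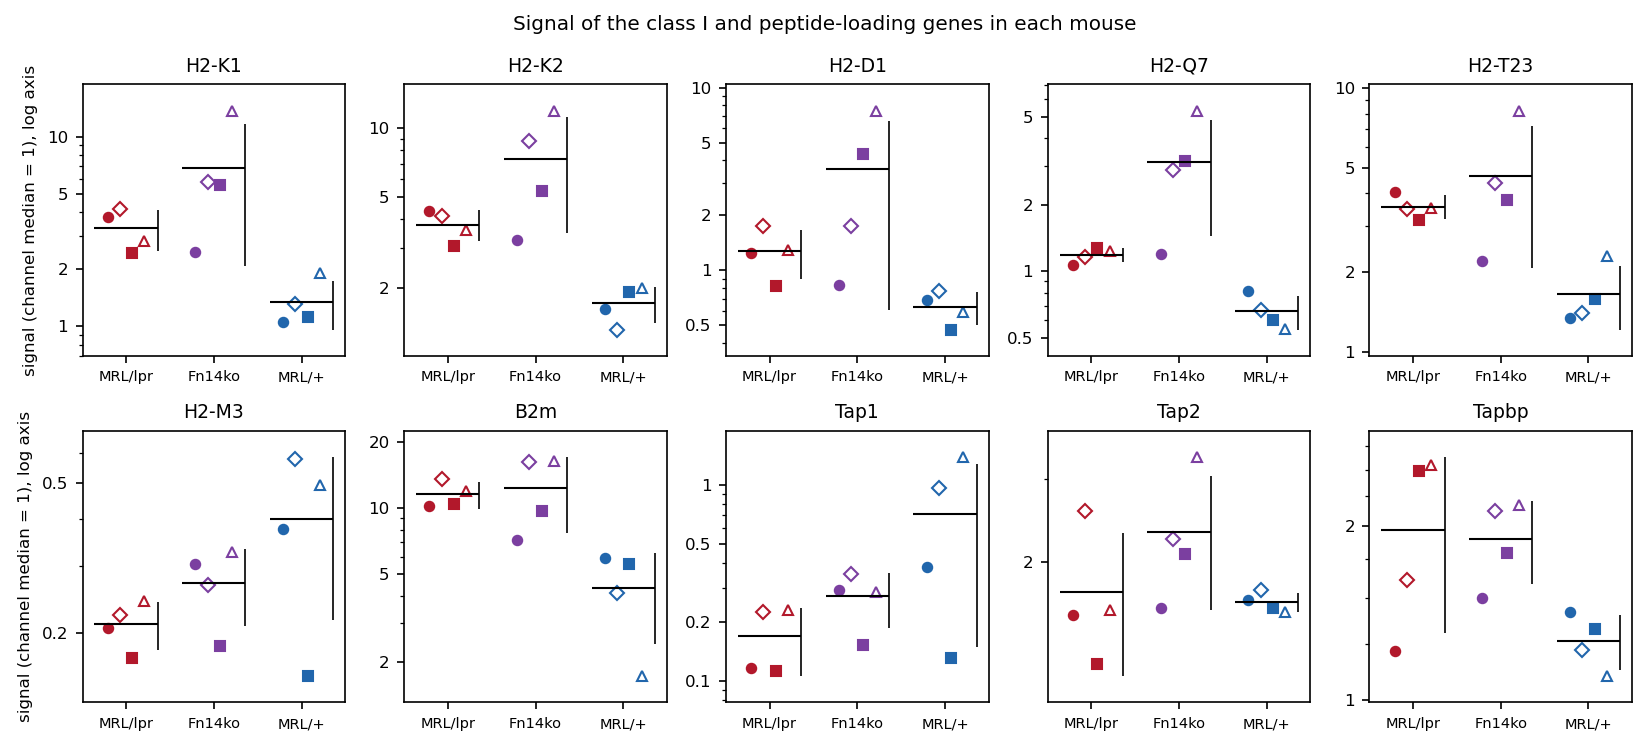
Signal of the 10 genes in each mouse, as background-corrected intensity over the channel median on a log axis. Circles, diamonds, squares and triangles are replicates 1 to 4, filled for Cy3 and open for Cy5, horizontal lines are means and vertical lines ± 1 SD (n = 4). The classical heavy chains and B2m lay higher in both lpr groups than in MRL/+, with the widest spread in Fn14ko for the heavy chains and in MRL/+ for B2m, whereas Tap1 and H2-M3 did not.

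The classical and Q-region heavy chains were higher in both lpr groups than in MRL/+. H2-K1, a classical heavy chain that presents peptides to CD8 T cells, had a signal of 3.77, 4.15, 2.43 and 2.83 in MRL/lpr replicates 1 to 4, of 2.48, 5.79, 5.55 and 13.7 in Fn14ko, and of 1.05, 1.31, 1.13 and 1.92 in MRL/+. Every mouse of both lpr groups was above every MRL/+ mouse, and Fn14ko replicate 4 stood highest of all 12. The log2 fold change against MRL/+ was 1.29 (SE 0.38) in MRL/lpr and 2.13 (SE 0.38) in Fn14ko.

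H2-K2, a class I-like gene whose transcript the array design lists as non-coding, followed the same order. Its signal was 4.35, 4.15, 3.05 and 3.59 in MRL/lpr, 3.24, 8.79, 5.31 and 11.9 in Fn14ko, and 1.61, 1.31, 1.91 and 2.00 in MRL/+. Neither lpr group overlapped MRL/+, at log2 fold changes of 1.15 (SE 0.37) and 1.95 (SE 0.37).

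H2-D1, the other classical heavy chain, was read by 1 spot. It gave 1.25, 1.75, 0.819 and 1.29 in MRL/lpr mice, 0.829, 1.74, 4.33 and 7.48 in Fn14ko, and 0.690, 0.773, 0.474 and 0.589 in MRL/+. The Fn14ko mice divided by array, with both mice of one array above every mouse of the other. H2-D1 was well above background in all 8 lpr mice and in 2 of 4 MRL/+ mice. The log2 fold change against MRL/+ was 0.99 (SE 0.50) in MRL/lpr and 2.07 (SE 0.50) in Fn14ko.

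H2-Q7, a non-classical heavy chain of the Q region, had the narrowest spread in MRL/lpr, at 1.07, 1.16, 1.27 and 1.24. In Fn14ko it was 1.19, 2.89, 3.14 and 5.33, and in MRL/+ 0.816, 0.670, 0.603 and 0.550, where 2 of 4 mice were well above background. Again neither lpr group overlapped MRL/+, and the log2 fold changes were 0.86 (SE 0.37) in MRL/lpr and 2.08 (SE 0.37) in Fn14ko.

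The non-classical chains differed from each other. H2-T23, which encodes Qa-1, the ligand of an inhibitory receptor of natural killer cells, was 4.05, 3.48, 3.16 and 3.51 in MRL/lpr mice, 2.21, 4.37, 3.75 and 8.21 in Fn14ko, and 1.34, 1.41, 1.59 and 2.32 in MRL/+. MRL/lpr did not overlap MRL/+, but Fn14ko replicate 1 fell below MRL/+ replicate 4. H2-M3, which presents N-formylated peptides, was dim, from 0.171 to 0.243 in MRL/lpr mice, 0.184 to 0.327 in Fn14ko and 0.153 to 0.577 in MRL/+. All 3 groups overlapped for H2-M3, and its log2 fold change against MRL/+ was −0.77 (SE 0.41) in MRL/lpr and −0.44 (SE 0.41) in Fn14ko. The sign of both H2-M3 values turned with Agilent's processed signal, to 0.27 and 0.41, and with loess scaling, to 0.14 and 0.26.

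B2m, the light chain shared by all class I molecules, was 10.2, 13.6, 10.4 and 12.03 in MRL/lpr, 7.20, 16.2, 9.72 and 16.5 in Fn14ko, and 5.96, 4.10, 5.58 and 1.72 in MRL/+. Neither lpr group overlapped MRL/+, with the lowest value in MRL/+ replicate 4, one of the 2 channels that stood apart. The log2 fold change was 1.55 (SE 0.49) in MRL/lpr and 1.58 (SE 0.49) in Fn14ko, and it was 0.68 and 0.70 without MRL/+ replicates 2 and 4.

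Of the peptide-loading genes, the 2 transporter subunits overlapped between groups, whereas Tapbp lay higher in most lpr mice. Tap1, a subunit of the peptide transporter, was 0.117, 0.224, 0.114 and 0.230 in MRL/lpr mice, 0.293, 0.352, 0.153 and 0.286 in Fn14ko, and 0.380, 0.957, 0.131 and 1.38 in MRL/+. Its highest values were in the 2 MRL/+ channels that stood apart, and the log2 fold changes against MRL/+ went from −1.65 (SE 0.55) to −0.86 in MRL/lpr and from −0.97 (SE 0.55) to −0.18 in Fn14ko without them. Tap2, the other transporter subunit, was 1.22 to 2.56 in MRL/lpr mice, 1.61 to 3.33 in Fn14ko and 1.57 to 1.75 in MRL/+. The groups overlapped for Tap2, with log2 fold changes of 0.02 (SE 0.23) and 0.44 (SE 0.23), and the sign in MRL/lpr turned in 13 of 35 alternatives.

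Tapbp, which encodes tapasin, was 1.22, 1.61, 2.49 and 2.55 in MRL/lpr mice, 1.504, 2.12, 1.80 and 2.17 in Fn14ko, and 1.42, 1.22, 1.33 and 1.10 in MRL/+. Every Fn14ko mouse and 3 of 4 MRL/lpr mice were above the highest MRL/+ mouse. The log2 fold change against MRL/+ was 0.57 (SE 0.25) in both lpr groups.

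**Figure D2:**
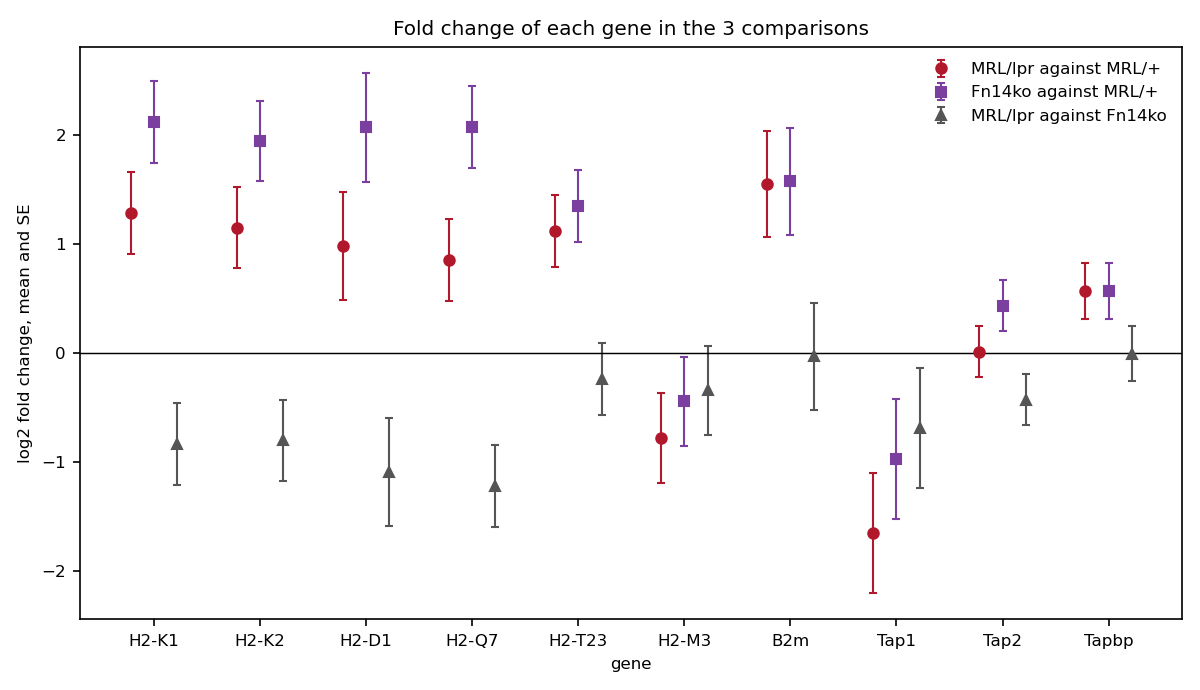
Log2 fold change of each gene with its standard error from the limma fit, for MRL/lpr against MRL/+ (circles), Fn14ko against MRL/+ (squares) and MRL/lpr against Fn14ko (triangles). The first 2 comparisons share the 4 MRL/+ mice. Against MRL/+, 8 of the 10 genes lay above 0 in each lpr group, with H2-M3 and Tap1 below.

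Over the whole set, 8 of the 10 genes had a log2 fold change above 0 against MRL/+ in each lpr group. The median was 0.92 in MRL/lpr and 1.47 in Fn14ko, beside −0.10 over all genes in both comparisons. At an adjusted p under 0.05 the limma fit put 2 members higher in MRL/lpr than in MRL/+, where 6.03% of all genes were called higher, and 0 lower, where 8.37% of all genes were. In Fn14ko it put 3 higher than in MRL/+, against 0.237% of all genes, and 0 lower, against 0.717%. Every MRL/lpr mouse was above every MRL/+ mouse for 6 members and 10.8% of all genes. The same held for every Fn14ko mouse for 6 members and 7.42% of all genes. These counts use the values that chose the set, and nothing is read from them. Both counts of members called higher fell to 0 without MRL/+ replicate 4, without Fn14ko replicate 2, without Fn14ko replicate 3, and without MRL/+ replicates 2 and 4 together. The MRL/lpr count was also 0 without MRL/lpr replicate 1, MRL/lpr replicate 3 or MRL/+ replicate 2, and 1 without MRL/lpr replicate 2. Both counts were 6 without Fn14ko replicate 1. They were 5 and 3 without Fn14ko replicate 4, 4 and 3 without MRL/+ replicate 1, and 4 and 6 without MRL/+ replicate 3. The direction against MRL/+ of H2-K1, H2-K2, H2-D1, H2-Q7, H2-T23, B2m and Tapbp was the same under each of the alternatives run. Without MRL/+ replicates 2 and 4 the log2 fold changes were smaller. In MRL/lpr and Fn14ko they were then 1.20 and 2.04 for H2-K1, 0.75 and 1.54 for H2-K2, and 0.73 and 1.82 for H2-D1. For H2-Q7 they were 0.49 and 1.71, for H2-T23 1.02 and 1.25, and for Tapbp 0.30 in both. In bulk cortex, fewer cells of a type and less RNA per cell cannot be told apart.

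The comparison of MRL/lpr with Fn14ko, which asks what the loss of Fn14 changes on the lpr background, was not used to choose the set and was tested. All 10 genes had a log2 fold change below 0, that is, a lower signal in MRL/lpr than in Fn14ko, with a median of −0.55 beside −0.07 over all genes, of which 57.2% were below 0. The sign of Tapbp turned in 10 of 35 alternatives and that of B2m in 7 of 36. The limma fit called 0 of the 10 in either direction, against 2.58% of all genes higher and 1.99% lower in MRL/lpr, and 3 had an unadjusted p under 0.05.

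The heavy chains gave the widest gaps between the lpr groups. For H2-Q7 the log2 fold change was −1.22 (SE 0.37, adjusted p = 0.0915), and 3 of 4 Fn14ko mice were above the highest MRL/lpr mouse. A 2-sided exact permutation test over the 70 splits of the 8 mice gave p = 0.0857, where the smallest p possible is 0.0286. H2-D1 differed by −1.09 (SE 0.50, adjusted p = 0.265), H2-K1 by −0.83 (SE 0.38, adjusted p = 0.256) and H2-K2 by −0.80 (SE 0.37, adjusted p = 0.271). For none of these 4 heavy chains did the groups separate fully, since Fn14ko replicate 1 fell among the MRL/lpr mice for each.

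H2-Q7 passed the threshold under some alternatives only. With all mice kept, its adjusted p was 0.0211 with background subtraction, 0.0475 with loess, 0.04105 with 75th-percentile scaling, 0.0299 without the array block, 0.04996 with the replicate block and 0.0307 against negative controls. Without Fn14ko replicate 1 the difference was −1.58 (adjusted p = 0.00675), and without the array of Fn14ko replicates 1 and 2 it was −1.79 (adjusted p = 0.0245). H2-D1 was called only without that array, at −2.21 (adjusted p = 0.00928), and without the array of Fn14ko replicates 3 and 4 its value turned to 0.035. Across all alternatives the adjusted p of H2-Q7 ran from 0.00675 to 0.658 and was under 0.05 in 9 of 35, while its direction was the same in each.

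The remaining members differed less. The log2 difference was −0.68 (SE 0.55) for Tap1, −0.42 (SE 0.23) for Tap2, −0.34 (SE 0.41) for H2-M3 and −0.23 (SE 0.33) for H2-T23, with adjusted p from 0.3599 to 0.785. For B2m the difference was −0.03 (SE 0.49) and for Tapbp −0.00092 (SE 0.25). The interval of 2 standard errors around the B2m difference ran from −1.004 to 0.952. It did not reach the size of the B2m gaps from MRL/+ with all mice, 1.55 and 1.58. It did reach the size of those gaps without MRL/+ replicates 2 and 4, 0.68 and 0.70.

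The spread within a group was computed from the same values that chose the set, and is not independent of that choice. It was measured as the relative expression variability (REV), the coefficient of variation among the 4 mice pooled over the spots of a gene and corrected for their number. In Fn14ko the median REV of the members was 72.2%, beside 36.5% over all genes, and 8 of 10 members lay above the all-gene median. In MRL/lpr the medians were 35.1% and 31.5%, and in MRL/+ 40.7% and 52.1%.

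H2-D1 had the highest REV of the set, 178% in Fn14ko against 63.9% in MRL/lpr and 43.9% in MRL/+. H2-Q7 went from 16.2% in MRL/lpr to 116% in Fn14ko and H2-T23 from 22.4% to 118%. H2-K1 reached 73.0% and H2-K2 71.4% in Fn14ko, against 39.0% and 23.9% in MRL/lpr. Tapbp ran the other way, with 72.0% in MRL/lpr and 35.1% in Fn14ko. The differences in REV were not tested.

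**Figure D3:**
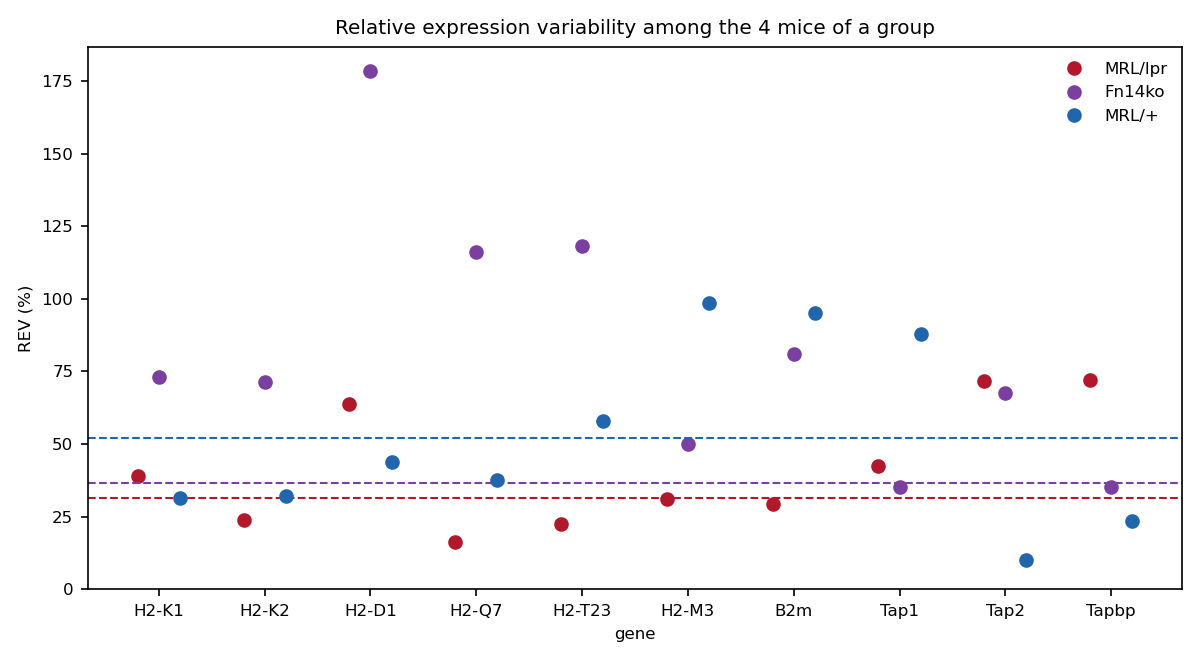
Relative expression variability (REV, %) of each gene among the 4 mice of MRL/lpr, Fn14ko and MRL/+. Dashed lines give the median REV over all 17302 genes in the group of the same colour. The 5 classical, Q-region and T-region heavy chains had their highest REV in Fn14ko, up to 178% for H2-D1, and H2-M3, B2m and Tap1 in MRL/+.

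The spread in Fn14ko followed single mice across genes. Fn14ko replicate 4 was the highest of its group for 9 of the 10 members and replicate 1 the lowest for 8. Replicates 2 and 4 were the Cy5 mice. Both lay above both Cy3 mice for H2-K1, H2-K2, H2-T23, B2m, Tap2 and Tapbp, but not for H2-D1, H2-Q7, H2-M3 and Tap1. Negative controls were 2.58-fold and 2.65-fold of local background in these Cy5 channels, against 1.13-fold and 1.18-fold in Cy3. The part of the dye in this spread was not tested. H2-K1 spanned 5.54-fold within Fn14ko, H2-D1 9.02-fold and H2-Q7 4.46-fold, whereas in MRL/lpr they spanned 1.71-fold, 2.13-fold and 1.19-fold. Across arrays of Fn14ko, the log2 mean of the mice on the second array minus that on the first was 2.25 for H2-D1, 1.20 for H2-K1 and 1.14 for H2-Q7, against 0.23 for B2m.

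The sums of some gene lists of other cells ran with the heavy chains in the Fn14ko mice. The summed signal of 6 MHC class II genes, which mark antigen-presenting cells, was 4.16, 9.28, 5.13 and 22.3 in Fn14ko replicates 1 to 4, against 2.60 to 4.07 in MRL/lpr and 2.18 to 4.90 in MRL/+. That of the 10 meningeal and perivascular fibroblast markers was 17.1, 36.5, 23.04 and 52.8, against 21.7 to 24.2 and 13.7 to 18.2. Of 7 B-lymphocyte markers on the arrays, the 2 that could be quantified, Cd79a and Jchain, summed to 0.793, 2.50, 1.03 and 5.04 in Fn14ko, against 0.445 to 0.626 and 0.395 to 1.45. All 3 sums were highest in Fn14ko replicate 4 and lowest in replicate 1, as were most members. In each sum both Cy5 mice of Fn14ko, replicates 2 and 4, were also above both Cy3 mice. The T and NK lymphocyte markers, at 62.5, 95.0, 72.2 and 103 in Fn14ko, and the transcriptional regulators also summed highest in replicate 4 and lowest in replicate 1. The sums of astrocyte, excitatory neuron, microglial, endothelial, choroid plexus and blood markers did not follow that order. Sums weigh bright genes most, and single genes differed. Cd74, H2-Ab1, Jchain, Dcn, Vtn, Col1a2, Slc22a6, Aldh1a2 and Pdgfrb had the same highest and lowest mouse. H2-DMa, H2-DMb1, H2-Oa, H2-Ob, Lum, Col1a1, Col3a1, Igf2 and Cd79a were lowest in replicate 3. Of these, H2-DMa and Igf2 were highest in replicate 2 and H2-Ob in replicate 1.

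The choroid plexus markers, 8 of 8 measured, summed to 9.18, 7.55, 101 and 15.2 in MRL/lpr replicates 1 to 4. The sums were 66.1, 124, 13.99 and 184 in Fn14ko, and 18.1, 86.3, 23.6 and 268 in MRL/+. In MRL/lpr 0 of the 8 had a log2 fold change above 0 against Fn14ko (median −1.86) or MRL/+ (median −1.47). Clic6 alone was called lower in each, where 1.99% and 8.37% of all genes were. The 12 endothelial markers summed to 44.8 to 50.2 in MRL/lpr, 40.3 to 49.6 in Fn14ko and 24.3 to 30.5 in MRL/+, so that neither lpr group overlapped MRL/+, as for H2-K1. Taken singly, 10.8% and 7.42% of all genes lay so. A sum weighs bright genes most. Of the 12, 10 in MRL/lpr and 9 in Fn14ko had a log2 fold change above 0 against MRL/+. Below 0 in both were Cdh5, at −0.89 and −1.16, and Pecam1, at −0.24 and −0.51. Of the endothelial markers, 6 were called higher in MRL/lpr and 4 higher in Fn14ko than in MRL/+, against 6.03% and 0.237% of all genes, and 0 lower. The 12 microglial markers overlapped in sum, from 50.9 to 71.6, 45.1 to 53.2 and 44.4 to 60.2. Of these, 11 had a log2 fold change above 0 in MRL/lpr against MRL/+, and 2, Aif1 and Siglech, were called higher, by 1.17 (SE 0.31, adjusted p = 0.0271) and 1.08 (SE 0.28, adjusted p = 0.0263). Siglech was also called higher in MRL/lpr than in Fn14ko, by 2.16 (SE 0.28, adjusted p = 0.00141). The 5 blood markers were 119 to 301 in MRL/lpr, 40.2 to 121 in Fn14ko and 34.7 to 62.0 in MRL/+. The part of these cells in the class I values was not tested.

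**Figure D4:**
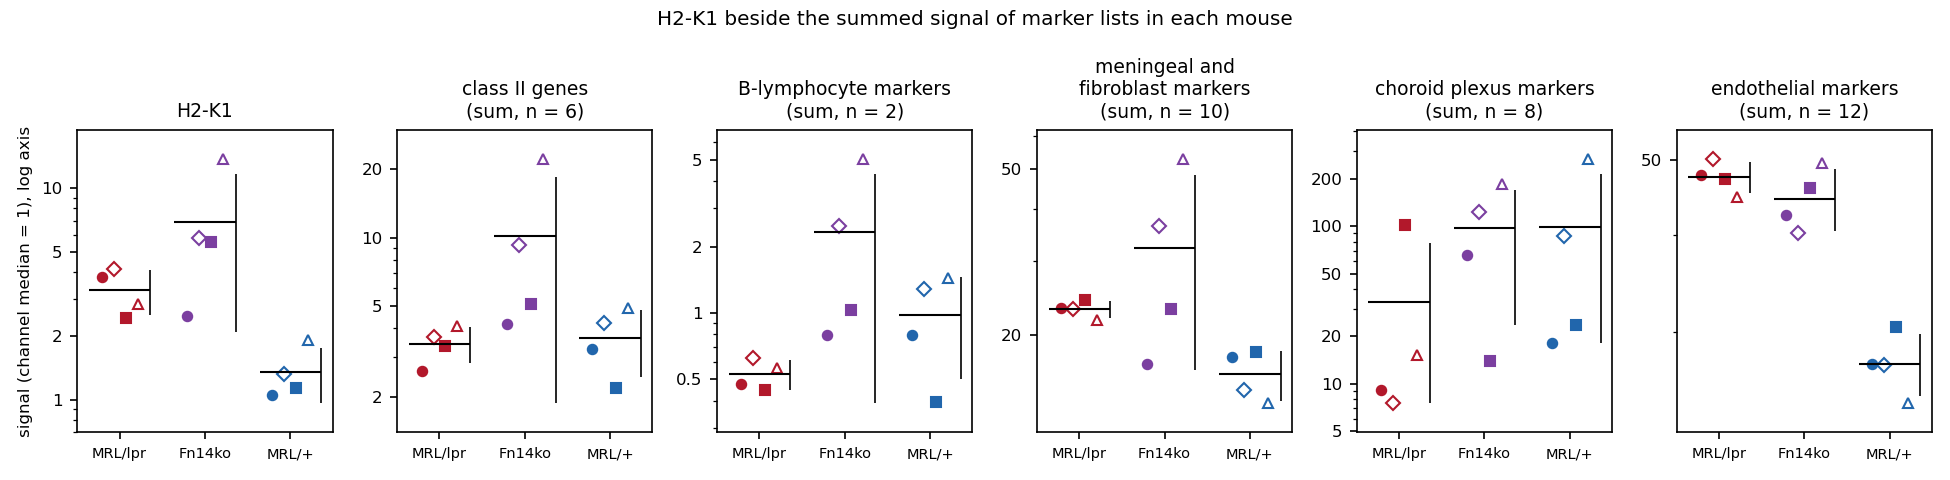
H2-K1 signal beside the summed signal of 5 gene lists in each mouse, on log axes, with symbols as replicates 1 to 4 (filled Cy3, open Cy5), means and ± 1 SD (n = 4), drawn from the lowest mouse where the SD exceeds the mean. In Fn14ko the class II, B-lymphocyte and meningeal sums ranked replicate 4 highest and replicate 1 lowest, as H2-K1 did, and the endothelial sum was higher in both lpr groups than in MRL/+.

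Without Fn14ko replicate 4, the log2 fold change of Fn14ko against MRL/+ was 1.82 for H2-K1, 1.71 for H2-K2, 1.73 for H2-D1, 1.82 for H2-Q7 and 1.09 for H2-T23. Between MRL/lpr and Fn14ko it was then −0.53 for H2-K1, −0.56 for H2-K2, −0.74 for H2-D1 and −0.96 for H2-Q7, whereas H2-T23 moved to 0.030 and B2m to 0.16.

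Where a member had several probes they were compared. The main H2-K1 probe, on 8 usable spots, gave log2 fold changes of 1.21 (SE 0.40) in MRL/lpr and 2.19 (SE 0.40) in Fn14ko against MRL/+. The single-spot H2-K1 probe gave 1.67 (SE 0.46) and 1.29 (SE 0.46), and so reversed the order of the lpr groups, with a difference of MRL/lpr from Fn14ko of 0.38 (SE 0.46, adjusted p = 0.755) against −0.98 (SE 0.40, adjusted p = 0.2199) on the main probe. On that probe MRL/lpr replicate 2 read 10.8, beside 3.19, 1.79 and 2.18 in the other MRL/lpr mice. The H2-K2 probes agreed in direction, at 1.48 (SE 0.37) and 1.02 (SE 0.40) in MRL/lpr and 2.20 (SE 0.37) and 1.86 (SE 0.40) in Fn14ko.

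**Figure D5:**
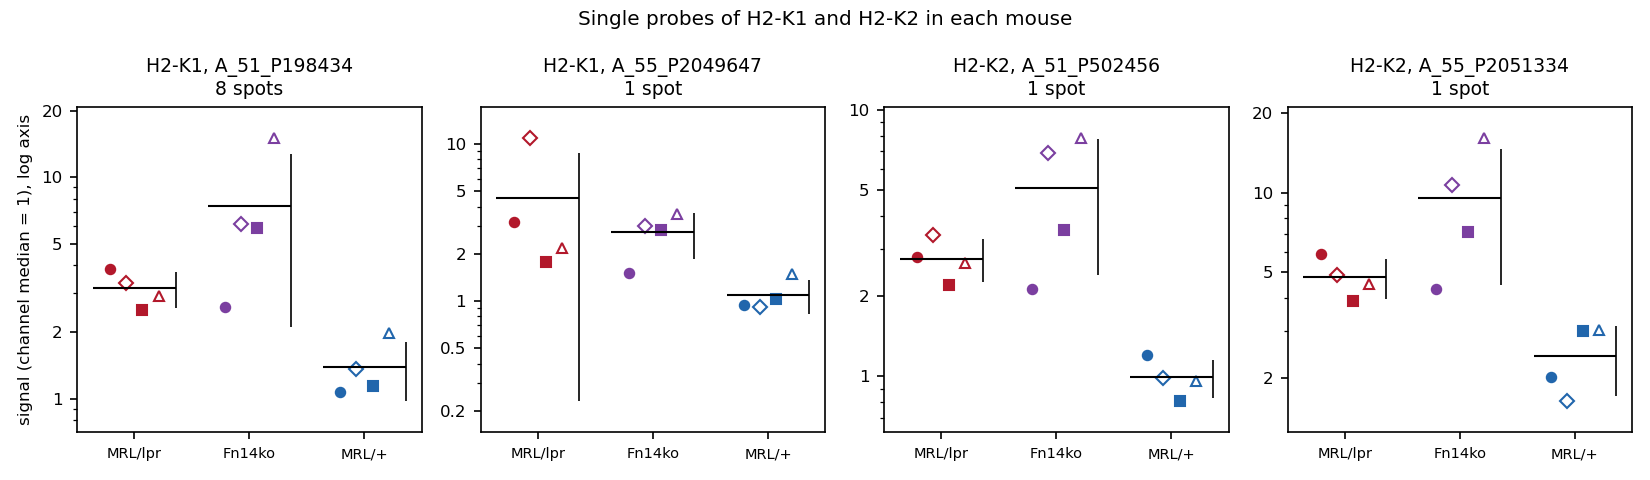
Signal of the single probes of H2-K1 and H2-K2 in each mouse, on log axes, with symbols as replicates 1 to 4 (filled Cy3, open Cy5), means and ± 1 SD (n = 4). MRL/lpr replicate 2 lies at 10.8 on the single-spot H2-K1 probe and among the other MRL/lpr mice on the remaining probes.

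The pathway around these genes was described with a list of 49 further measured genes. The limma fit called 1 of them between MRL/lpr and Fn14ko, where 4.57% of all genes were called, 4 between MRL/lpr and MRL/+, against 14.4%, and 3 between Fn14ko and MRL/+, against 0.954%. The same shares, or those by direction given above, stand as the background of the counts by list that follow. Among 15 other class I and class I-like heavy chains, 2 rose in MRL/lpr and 3 in Fn14ko relative to MRL/+, and 0 fell. H2-Q2 was higher by 1.05 (SE 0.28, adjusted p = 0.0282) in MRL/lpr and by 1.70 (SE 0.28, adjusted p = 0.0194) in Fn14ko on the log2 scale. Its probes differed. Probe A_51_P219789 gave 1.47 (SE 0.37, adjusted p = 0.0209) in MRL/lpr and 2.10 (SE 0.37, adjusted p = 0.0229) in Fn14ko. Probe A_51_P425048 gave 0.09 (SE 0.23, adjusted p = 0.793) and 0.82 (SE 0.23, adjusted p = 0.0977). H2-Q8 was higher by 1.22 (SE 0.29, adjusted p = 0.0154) and by 1.71 (SE 0.29, adjusted p = 0.0194). H2-M2, on 8 spots, was higher by 1.25 (SE 0.22, adjusted p = 0.0243) in Fn14ko and by 0.63 (SE 0.22, adjusted p = 0.0702) in MRL/lpr. Its signal was 1.496 to 1.98 in MRL/lpr mice, 1.63 to 3.95 in Fn14ko and 0.971 to 1.22 in MRL/+, so neither lpr group overlapped MRL/+. These calls too were lost without MRL/+ replicate 4, which left 0 of the 49 genes called in any comparison, and those in Fn14ko without Fn14ko replicate 2. Without MRL/+ replicate 3, 19 of the 49 were called in MRL/lpr and 8 in Fn14ko relative to MRL/+. The share of all genes called in the fits that left out a mouse is not given here, so nothing is read from these counts.

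Of 16 genes of peptide supply and chaperones, 0 were called in any comparison. The immunoproteasome subunit Psmb8 had a log2 fold change of 1.16 (SE 0.29, adjusted p = 0.0730) in Fn14ko and 0.51 (SE 0.29) in MRL/lpr against MRL/+, and Psmb9 0.36 (SE 0.26) and −0.18 (SE 0.26). Tapbpl, a relative of tapasin, was bright and overlapped between all groups, with −0.16 (SE 0.25) and 0.31 (SE 0.25). Erap1, which trims peptides in the endoplasmic reticulum, was dim, with −0.68 (SE 0.52) and −0.99 (SE 0.52). Of 17 transcriptional regulators, 2 rose in MRL/lpr relative to MRL/+, namely Irf9 by 0.90 (SE 0.21, adjusted p = 0.0153) and Stat2 by 0.65 (SE 0.14, adjusted p = 0.0122). The proteins of these genes join in the factor that carries the type I interferon signal. Irf2, a repressor of interferon-response genes, was higher in MRL/lpr than in Fn14ko by 0.75 (SE 0.16, adjusted p = 0.0188), a call lost without MRL/lpr replicate 1, Fn14ko replicate 2, MRL/+ replicate 3 or MRL/+ replicate 4 and under several other alternatives, among them Agilent's processed signal, 75th-percentile scaling, no filter on dim spots, only the groups compared and Cy5 mice alone. Nlrc5, the transactivator of class I genes, was well above background in 1 of 4 MRL/lpr, 3 of 4 Fn14ko and 1 of 4 MRL/+ mice and did not pass the test, and Irf1 gave 0.43 (SE 0.30) in MRL/lpr and 0.84 (SE 0.30) in Fn14ko without passing it. Of 14 class I receptors and co-receptors only Pirb, an inhibitory receptor of class I molecules, was quantified, and it overlapped between groups at log2 fold changes of 0.42 (SE 0.27) in MRL/lpr and 0.15 (SE 0.27) in Fn14ko against MRL/+.

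Among genes outside the set, those whose log2 signals followed H2-K1 most closely over the 12 mice were an unnamed transcript on probe A_55_P2102181 (Pearson r = 0.974), Gm11127 (r = 0.973), Iscu (r = 0.948), Tsen15 (r = 0.947) and H2-Q8 (r = 0.947). Within the set, r with H2-K1 was 0.964 for H2-K2, 0.963 for H2-T23, 0.921 for H2-D1 and 0.909 for H2-Q7, and lower for B2m at 0.694, Tap2 at 0.730 and Tapbp at 0.521. H2-M3 and Tap1 had r of −0.20 and −0.24. The mice share arrays, slides and groups, so these are descriptions, and genes with probes as alike as H2-K2 and H2-Q7 can share signal.

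Tnfrsf12a, the gene deleted in Fn14ko, also lies on chromosome 17, its probe at chr17:23812746-23812805, 10.3 Mb before the first member. Between 30 and 40 Mb, where the 9 members lie, 6 of the 197 genes outside the set (3.05%) were called between Fn14ko and MRL/+. Over all genes the share was 0.954%. The other 10-Mb intervals of the chromosome held 0% to 2.04%, except 60 to 70 Mb with 1 of 31 genes (3.23%). Between MRL/lpr and Fn14ko, 6 of the 206 genes (2.91%), none of them a member, were called there and 9 of 217 (4.15%) between 20 and 30 Mb, around Tnfrsf12a, where the other intervals held 2.04% to 14.3% and all genes 4.57%. The 129 other genes between the first and the last member had a median log2 fold change of −0.08 between MRL/lpr and Fn14ko, and 3 of them were called, all lower in MRL/lpr, namely H2-Ab1, Ly6g6e and Tnxb. Against MRL/+, 17 of the 129 were called in MRL/lpr and 5 in Fn14ko, where 14.4% and 0.954% of all genes were. The 5 in Fn14ko were H2-Q2, H2-Q8, Gm11127, the unnamed transcript on probe A_55_P2102181 and Gabbr1. All but Gabbr1 are class I heavy chains or among the genes that followed H2-K1 most closely. These 5 also lie between 30 and 40 Mb, so the 3.05% there is not a share of genes unrelated to the set.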

How the data were processed

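Gene expression in cortex was measured on 6 Agilent 2-colour arrays, used as the scanner files for 12 mice, 4 per group. The deposited files hold, per the file headers, the mean foreground intensity and median local background intensity of each spot and channel, extracted by the authors with Agilent Feature Extraction 12.1.0.3, before normalization between arrays. The processed signal in the same files served in an alternative. Gene names and mm9 positions are those of the files. Groups came from the deposited labels.

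Spots marked uneven or outlying, or under 2 times background in any channel, were left out. Normexp background correction (offset 50) in limma 3.58.1 under R 4.3.3 was followed by division by the channel median, and spots of a gene were averaged on the linear scale. Group differences were fitted on log2 values of all 17302 genes with a dye term, the array as a random block (correlation 0.316) and a trended prior, 2-sided, with Benjamini-Hochberg adjustment. The procedure was tested on simulated data. The number of arrays limits the precision, and log2 fold changes had a median SE of 0.25. Labels do not say more of the replicates than their numbers, and the p-values measure the spread between these mice. REV followed the study's methods. Sequences were matched in Python 3.11.15 with numpy 2.4.6, pandas 2.3.3 and scipy 1.17.1, plots drawn with matplotlib 3.10.9. Pathway genes are named if past the threshold in a comparison or among the first 4 textbook names of each list, an order settled after their values were seen, and likeness to H2-K1 by the 5 highest Pearson r. The members, lists and tests were chosen with earlier results of these data known. Alternatives varied the background correction, scaling, filters, merging of spots, fit and samples.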

Additional observations from a re-analysis of the deposited data

Results flagged for a closer look

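On the single-spot H2-K1 probe, MRL/lpr replicate 2 read 10.8 and stood apart from the other 3 mice of its group, which read 1.79 to 3.19. On the main H2-K1 probe the same mouse read 3.32, within its group. This was the only mouse apart in 42 tests of a gene or probe within a group, where chance gives about 1 in 20.

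Another H2-K1 probe, designed on a predicted transcript variant with no position in the files, was too dim to enter the comparisons. It was well above background in 2 of 4 MRL/lpr mice, 2 of 4 Fn14ko mice and 0 of 4 MRL/+ mice. Its foreground was 5.06 and 4.01 times the local background in MRL/lpr replicates 1 and 3, and 3.63 and 4.71 times in Fn14ko replicates 3 and 4. In MRL/+ it was 1.38 to 3.37 times, where replicates 2 and 4 had the raised negative controls given above.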

How the results depend on the processing

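The counts were recomputed under 36 alternatives, of which 12 left out 1 mouse and 6 left out 1 array. The members called are given below in the order MRL/lpr against Fn14ko, MRL/lpr against MRL/+ and Fn14ko against MRL/+, where 0, 2 and 3 were reported, and then the pathway genes in the same order, where 1, 4 and 3 were. Background subtraction called 2, 6 and 6 members and 6, 11 and 10 pathway genes. Agilent's processed signal called 0, 3 and 5 and then 3, 4 and 5. Loess with Aquantile scaling called 1, 4 and 6 and then 6, 10 and 10. Scaling by the 75th percentile called 1, 5 and 5 and then 0, 3 and 3. Without the filter on dim spots 0 were called throughout. With only spots well above background in all 12 samples, 0, 4 and 4 members and 2, 2 and 2 pathway genes were called, from fewer genes tested and without H2-D1, H2-Q7, H2-M3, Tap1, Tap2 and Tapbp. With marked spots kept, 0, 0 and 3 members and 1, 5 and 3 pathway genes were called, and with the mean of log2 values 0, 4 and 3 and then 1, 3 and 3. Single probes called 0, 4 and 3 and then 1, 5 and 4. The fit without a dye term called 0, 3 and 3 and then 1, 5 and 3, without the array block 1, 5 and 6 and then 3, 11 and 10, and with only the groups compared 0, 5 and 5 and then 0, 5 and 4. The methods' t-test with Benjamini-Hochberg adjustment called 0, 3 and 0 and then 1, 1 and 0. Cy3 mice alone gave 0, 3 and 1 and then 1, 3 and 2, and Cy5 mice alone 1, 4 and 8 and then 2, 15 and 19. Of those chosen after seeing the data, normexp against the negative controls called 1, 5 and 6 and then 5, 9 and 10, and leaving out MRL/+ replicates 2 and 4 called 0 throughout. Leaving out 1 mouse or array gave 0 to 2, 0 to 7 and 0 to 6 members and 0 to 2, 0 to 19 and 0 to 8 pathway genes. The counts over all genes under the remaining alternatives are not given here. Nothing is read from any of these counts, and the causes of their changes were not tested.

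The replicate block called 1, 5 and 6 members and 2, 15 and 6 pathway genes. The deviations of same-numbered mice from their group means correlated from -0.13 to 0.72, and from -0.28 to 0.48 with the dye effect removed, when Fn14ko and MRL/+ gave 0.48, 0.16, 0.38 and -0.28 for replicates 1 to 4. No pair of groups was positive for all 4 numbers after that, and the labels name no shared origin, so no pairing was used.

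Directions turned as follows on the log2 scale. Tap2 in MRL/lpr against MRL/+, at 0.02, turned in 13 of 35 alternatives and ran from -0.25 to 0.62. With the processed signal, Erap1 turned to 0.082 in MRL/lpr against Fn14ko, Pirb to -0.37 and -0.53 in MRL/lpr and Fn14ko against MRL/+, Tapbpl to -0.14 in MRL/lpr against MRL/+, H2-M3 turned to 0.27 and 0.41 in MRL/lpr and Fn14ko against MRL/+, Psmb9 to 0.53 in MRL/lpr against MRL/+, Irf2 to 0.067 in Fn14ko against MRL/+ and Stat2 to -0.12 in MRL/lpr against Fn14ko. With loess, H2-M3 turned to 0.14 and 0.26, Tapbp to 0.011 in MRL/lpr against Fn14ko and Nlrc5 to 0.030 and Erap1 to 0.076 in Fn14ko against MRL/+. The 75th percentile turned Tapbp to 0.014 and, in Fn14ko against MRL/+, Pirb to -0.095. Without the filter on dim spots, Stat2 was -0.064 against Fn14ko, Psmb9 0.15 in MRL/lpr against MRL/+, and H2-M3 0.29, Irf2 0.22, Erap1 0.044, Tapbpl 0.57 and Tnfrsf12a 0.056 in Fn14ko against MRL/+. In that comparison Pirb was -0.073 with only spots well above background, -0.13 in Cy3 mice alone and -0.18 without MRL/+ replicates 2 and 4, and Tapbpl 0.013 in Cy5 mice alone. Against negative controls, H2-M3 was 0.073, Erap1 0.15 and Nlrc5 0.0041 in MRL/lpr against Fn14ko. In the same comparison Tapbp was 0.050 on the values of the t-test, and Cy3 mice alone gave H2-T23 0.31, B2m 0.30, Tapbp 0.082 and Irf1 0.14, with Psmb9 at 0.11 in MRL/lpr against MRL/+. Between MRL/lpr and Fn14ko, leaving out 1 mouse or array gave -2.21 to 0.035 for H2-D1, -0.65 to 0.19 for H2-T23, -0.31 to 0.21 for B2m, -0.43 to 0.42 for Tapbp, -1.10 to 0.14 for Nlrc5, -0.74 to 0.12 for Erap1 and -0.055 to 0.18 for Stat2. It gave -0.0039 to 0.63 for Tapbpl in MRL/lpr against MRL/+, and in Fn14ko against MRL/+ -0.046 to 0.39 for Pirb and -0.47 to 0.16 for Tapbpl.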

Other observations

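Among the class I-like genes, H2-T9 was chosen after its values were seen. It read 11.7 and 45.1 in MRL/lpr replicates 1 and 2, which share an array, and 0.330 and 0.382 in replicates 3 and 4. In Fn14ko it read 0.383 to 0.635 and in MRL/+ 0.245 to 0.757, and no comparison passed the threshold (limma adjusted p = 0.307 between MRL/lpr and Fn14ko).

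In the class II list, H2-Ab1, the chain of the I-A molecule, was lower in MRL/lpr than in Fn14ko (limma adjusted p = 0.0205), with 0.307 to 0.651 in MRL/lpr and 0.680, 1.76, 1.499 and 7.62 in Fn14ko. Cd74, the invariant chain, read 0.802 to 1.97 and 1.55, 5.08, 2.14 and 11.7, without passing the test (adjusted p = 0.113). Of the interferon-stimulated genes, 1 of 18, Gbp3, was called in MRL/lpr and 1, Igtp, in Fn14ko against MRL/+, both higher, where 14.4% and 0.954% of all genes were called in either direction.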
